A study of Mus musculus with 4 samples.

Results

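The smooth muscle contractile genes are 10 genes that encode the actin and myosin of smooth muscle, the proteins that regulate or anchor these filaments and 1 transcriptional activator of them: Acta2, Actg2, Myh11, Tagln, Cnn1, Mylk, Myocd, Des, Lmod1 and Cald1. They were taken by gene symbol and by no cutoff on a measured difference, but earlier results of these data were known at that time. Each had exactly 1 probe set, so all 10 were measured among 18820 genes in all. The values come from 4 Affymetrix arrays of sorted cells from mouse metanephric kidneys, which were removed at about day 14 of gestation and grown in organ culture for about 10 days. All mice carried the allele of B6.129P2-Lgr5tm1(cre/ERT2)Cle/J, in which EGFP and a tamoxifen-dependent Cre stand under the control of Lgr5, a receptor of the Wnt pathway, so that the knock-in allele was carried by the cells of both fractions. The GFP-high fraction was hybridised to 2 arrays, titled kidney A and kidney B, and the GFP-negative fraction to 2 arrays, titled kidney B and kidney D, which are called high-A, high-B, negative-B and negative-D here. Values of the 4 arrays are given in that order, GFP-high before GFP-negative cells. The GFP-negative fraction holds every cell type without detectable reporter. Because the labels do not say whether a letter is 1 organ, 1 litter or a pool, p-values speak of the spread among 4 arrays alone, and that spread may be technical.

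Smooth muscle shortens when calcium activates myosin light chain kinase, which phosphorylates the light chain of myosin and lets it pull on actin filaments. Calponin, caldesmon and transgelin bind along these filaments, and desmin ties them into the cell. Most of these genes are driven by serum response factor, which binds CArG elements together with the coactivator myocardin. In the developing kidney such genes are known from the smooth muscle of arteries and ureter, from pericytes and mesangial cells, and, for Acta2, from activated stromal cells.

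On a log2 scale, all 10 genes lay lower on both GFP-high arrays than on both GFP-negative arrays, an arrangement found in 24.0% of all genes. By limma with Benjamini-Hochberg adjustment over all genes, 8 of the 10 fell in GFP-high cells at an adjusted p below 0.05, where 11.2% of all genes did, and 0 of 10 rose, where 8.08% of all genes did. Differences of at least 4-fold downwards were seen in 9 of the 10 members and in 2.25% of all genes. The median difference over the members was -2.54, against 0.05 over all genes. Cnn1 and Lmod1 did not pass. In bulk fractions, fewer contractile cells and less contractile RNA per cell cannot be told apart. The count of 8 dropped to 1 when high-A was left out, 3 for high-B, 4 for negative-B and 7 for negative-D. These fits keep a single residual degree of freedom, and over all genes the 2100 lower calls also dropped, to between 729 and 1148.

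**Figure D1:**
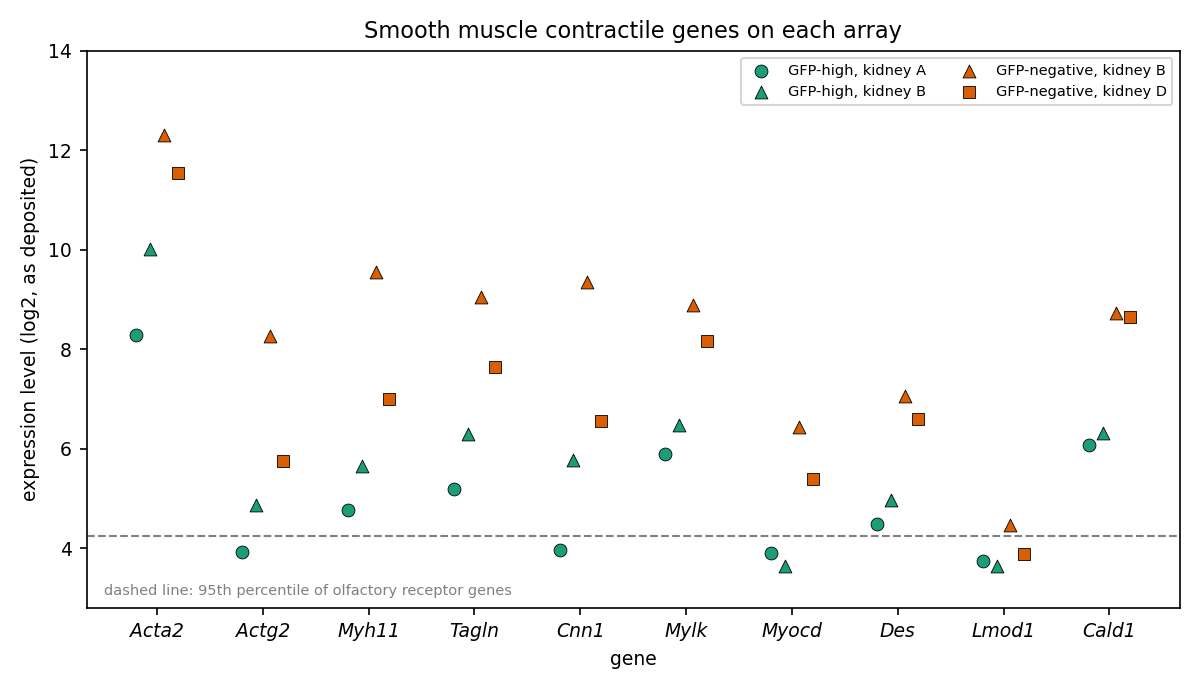
Expression level (log2, as deposited) of each contractile gene on the 4 arrays, with circles for high-A, triangles for high-B and negative-B, squares for negative-D, and colour for the fraction. For every gene both GFP-high points lie under both GFP-negative points, and the distance between points of the same colour ranges from small for Cald1 to more than 1.8 for Cnn1 in either fraction.

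The fractions were checked on other genes. Lgr5 stood at 10.43 and 10.34 on the GFP-high arrays and at 6.39 and 6.31 on the GFP-negative arrays. Of 8 tubular epithelial markers 7 were higher in GFP-high cells, where 8.08% of all genes were. Lower were all 10 markers of interstitial stroma, all 5 of nephron progenitors and 9 of 12 of pericytes, mesangial and renin cells. So were 7 of 8 of endothelium and all 4 measured of podocytes, where 11.2% of all genes were lower. Notch3 and Anpep, of the pericyte, mesangial and renin list, were higher in GFP-high cells (differences 1.38 and 1.32), though neither passed without either GFP-high array. Of 8 macrophage markers 7 did not pass and 1, Cd68, was lower, a call lost without high-A, negative-B or negative-D, with median centring and with the array number as a block. Left out singly, high-A and high-B cut the endothelial count to 2 and 3, and high-A, high-B and negative-B cut the podocyte count to 0, 2 and 1. GFP-negative cells thus differed from GFP-high cells in markers of several cell types at once, and the part of each in the contractile gene values was not tested. Array medians over 35556 probe sets lay between 5.07 and 5.24. As a background level the 95th percentile of 990 olfactory receptor genes, 4.24, was used.

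Acta2 encodes the alpha actin of vascular smooth muscle, which is also made by pericytes and myofibroblasts. It had values of 8.29 and 10.02 in GFP-high cells of kidneys A and B, and of 12.31 and 11.53 in GFP-negative cells of kidneys B and D. The groups did not overlap, although the GFP-high arrays lay 1.73 apart. The difference was -2.77 (SE 0.516, limma adjusted p = 0.0088), a 6.80-fold lower level in GFP-high cells. It did not pass without high-A, negative-B or negative-D (adjusted p = 0.105, 0.185 and 0.0999).

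Actg2, the gamma actin of visceral smooth muscle such as that of the ureter, stood at 3.92 and 4.87 in GFP-high cells and at 8.26 and 5.76 in GFP-negative cells. The negative-B array was far above the other 3, and high-A lay under the background level. Its difference of -2.61 (SE 0.719, limma adjusted p = 0.0442) was a 6.12-fold lower level close to the threshold. It did not pass with robust variance estimation (adjusted p = 0.0769), nor without high-A (0.394), high-B (0.238) or negative-B (0.186, where the difference was -1.36).

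Promoter sequence of 6 of the 10 members was available from RefSeq (GRCm38.p6), as 7 windows from 250 bases before to 50 bases after an annotated start. The Acta2 window is shown because it was the only 1 of the 7 with CArG-like matches. The Mylk window is shown as 1 of those that share with Acta2 the motif CATTCC, which TEAD factors bind. It lies inside the Mylk gene, whose span begins at base 34745199, and which Mylk transcript uses that start is not given here. A CArG box is CC, 6 bases of A or T, and GG, and a CArG-like match allows 1 of the 6 to be another base. Both strands were searched, on which CArG forms read alike, and matches of CArG-like elements, CATTCC and TATAA are in capitals.
Acta2, chr19:34255324-34255623, minus strand: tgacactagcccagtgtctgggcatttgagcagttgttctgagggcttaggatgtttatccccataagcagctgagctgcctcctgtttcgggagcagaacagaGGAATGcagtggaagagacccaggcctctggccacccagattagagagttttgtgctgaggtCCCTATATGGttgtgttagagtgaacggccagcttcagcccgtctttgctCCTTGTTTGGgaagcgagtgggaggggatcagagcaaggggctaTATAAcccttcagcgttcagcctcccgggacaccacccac
Mylk, chr16:34784700-34784999, plus strand: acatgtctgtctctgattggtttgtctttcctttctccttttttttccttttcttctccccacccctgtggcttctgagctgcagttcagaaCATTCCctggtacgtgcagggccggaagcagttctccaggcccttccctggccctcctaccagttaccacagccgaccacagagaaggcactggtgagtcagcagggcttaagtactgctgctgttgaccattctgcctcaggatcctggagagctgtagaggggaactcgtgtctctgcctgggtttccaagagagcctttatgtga
The Acta2 matches are CCCTATATGG at positions -84 to -75 and CCTTGTTTGG at -34 to -25, each with 1 base off the strict form. On the reverse strand CATTCC lies at -146 to -141 in Acta2, and on the forward strand at -158 to -153 in Mylk. TATAA lies at 11 to 15 in Acta2, after the start that the annotation gives. Of 32851 windows, 9.98% hold a CArG-like match, 1.63% a strict CArG box, 14.7% CATTCC and 24.9% TATAA. None of the 7 member windows holds a strict CArG box, and 4 of 7 hold CATTCC, with those of Lmod1 and Cald1 beside the windows shown. Actg2, Myh11, Tagln and Myocd had no window here.

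Myh11, the heavy chain of smooth muscle myosin and the most specific of these markers, stood at 4.77 and 5.65 in GFP-high cells and at 9.54 and 6.99 in GFP-negative cells. Kidney B was again the highest array, by 2.55 over the other GFP-negative array. The difference was -3.06 (SE 0.726, limma adjusted p = 0.0248), 8.32-fold lower in GFP-high cells. Without negative-B it was -1.78 (adjusted p = 0.0938), and without high-A and high-B adjusted p was 0.327 and 0.209.

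Mylk, which encodes myosin light chain kinase, showed a tighter pattern. Its values were 5.89 and 6.47 in GFP-high cells and 8.89 and 8.16 in GFP-negative cells. The level fell 5.09-fold, with a difference of -2.35 (SE 0.274, limma adjusted p = 0.000978). Without high-A and high-B adjusted p was 0.0842 and 0.0534.

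Among the proteins that sit on actin filaments, Tagln (transgelin, an early marker of the lineage) had 5.20 and 6.29 in GFP-high cells and 9.04 and 7.64 in GFP-negative cells. It fell 6.07-fold, with a difference of -2.60 (SE 0.484, limma adjusted p = 0.00875). The call was lost without high-A (0.212), high-B (0.104) or negative-B (0.122).

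Cnn1 encodes calponin, which binds actin and holds back the myosin motor. It had 3.95 and 5.78 in GFP-high cells and 9.35 and 6.55 in GFP-negative cells, and the gap between the groups was narrower than the gap within either. The mean difference of -3.08 (SE 0.895, 95% interval -5.20 to -0.97) was the largest of the 10 members, yet it did not pass (limma adjusted p = 0.0537). Median centring, cyclic loess, both filters on dim genes and a mean-variance trend each put it under the threshold, with adjusted p from 0.0197 to 0.0485. So did a block for the crossed pairing of the arrays, B with B and A with D (0.0001705). No label links A with D, and that fit keeps a single residual degree of freedom. Cnn1 did not pass with the array number as a block, quantile normalization or robust variance estimation, nor with either other choice of probe sets (0.0504 to 0.0904). No fit without 1 array passed either (0.0516 to 0.432), with differences from -4.49 to -1.68.

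Cald1 encodes caldesmon, whose shorter form is also made in non-muscle cells. The values of 6.08 and 6.32 in GFP-high cells and 8.72 and 8.65 in GFP-negative cells hardly varied within a fraction. Its difference of -2.49 (SE 0.136, limma adjusted p = 3.509e-05), a 5.60-fold fall, passed whichever of the 4 arrays was left out, and it was the only member of which this held.

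Lmod1, an actin nucleator of smooth muscle, was measured at the limit of the array. It had 3.73 and 3.64 in GFP-high cells and 4.46 and 3.88 in GFP-negative cells, so that 3 of 4 arrays lay under the background level. The difference of -0.48 (95% interval -0.94 to -0.02) did not pass (limma adjusted p = 0.152). Signal this close to background limits the difference that the array could show.

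Des encodes desmin, the intermediate filament of muscle, which pericytes and mesangial cells also make. It had 4.49 and 4.96 in GFP-high cells and 7.05 and 6.60 in GFP-negative cells, and fell 4.28-fold (difference -2.10, SE 0.209, limma adjusted p = 0.000447). Leaving out high-A alone lost the call, at an adjusted p of 0.0518.

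Myocd encodes myocardin, the coactivator of serum response factor that switches the programme on. It stood at 3.91 and 3.63 in GFP-high cells, both under the background level, and at 6.44 and 5.40 in GFP-negative cells. The difference was -2.15 (SE 0.310, limma adjusted p = 0.00269). Without high-A and high-B adjusted p was 0.12 and 0.133. In contrast to most members, its GFP-high value was not higher in kidney B than in kidney A.

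Most members differed far more within a fraction than the median gene did. The pooled SD between arrays of a fraction was 1.67 for Cnn1, the largest of all 18820 genes, 1.35 for Myh11 and 1.34 for Actg2, against a median of 0.126 over all genes. It was 0.947 for Acta2 and 0.886 for Tagln, each above at least 99.9% of genes, and 0.541 for Myocd, 0.466 for Mylk, 0.326 for Des and 0.294 for Lmod1. Cald1, at 0.127, was near the median gene. Such spread was not particular to the members. It was 0.994 for the troponin gene Tnnt2 and 0.927 and 0.849 for the podocyte markers Podxl and Ptpro. The fall in mean level was of similar size in Cald1 and Tagln, while their spread differed several-fold.

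This spread had a direction that both fractions shared. In 8 of the 10 members the array of kidney B was above its partner in both fractions, as in 31.5% of all genes, and in 6 it was above by at least 0.5 in both, as in 0.345% of all genes. The cutoff of 0.5 was chosen after the values had been seen. Cnn1 had the largest excess of kidney B of all genes in either fraction, 1.82 over kidney A among GFP-high cells and 2.81 over kidney D among GFP-negative cells. Acta2 ranked 2 of 18820 among GFP-high cells (1.73) and 88 among GFP-negative cells (0.78). Myh11 and Actg2 ranked 2 and 3 among GFP-negative cells (2.55 and 2.50) and 56 and 39 among GFP-high cells (0.88 and 0.96). Tagln ranked 22 and 8 (1.09 and 1.40). For the same 8 members the order from highest to lowest was negative-B, negative-D, high-B, high-A. That order follows from kidney B being above in both fractions and from groups that did not overlap, so it restates those results. It was also found in 8.03% of all genes and in 33.9% of the genes called lower, to which Cnn1, 1 of the 8, does not belong.

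**Figure D2:**
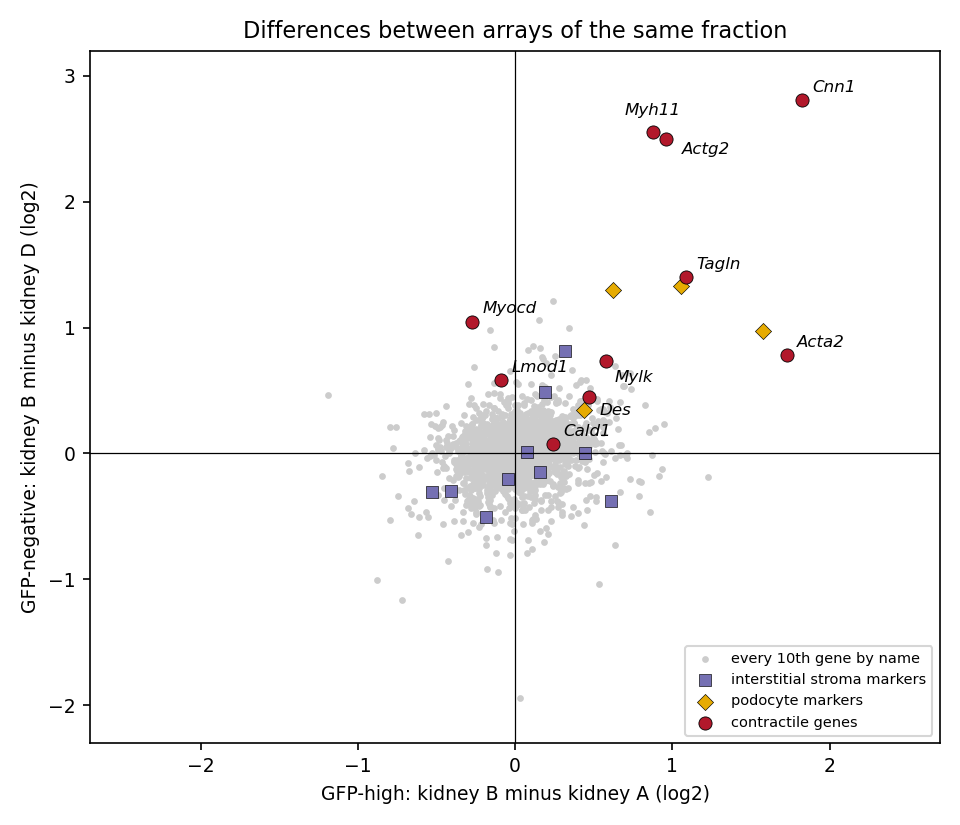
Difference between the arrays of the same fraction for each gene (log2), with kidney B minus kidney A of GFP-high cells on the horizontal axis and kidney B minus kidney D of GFP-negative cells on the vertical axis. Cnn1, Myh11, Actg2, Tagln and Acta2 lie in the upper right, with 3 of 4 podocyte markers nearby, whereas Cald1 lies within the cloud of other genes, of which 1 in 10 is drawn in grey. The stromal markers lie on all sides of 0, with Foxd1 highest at 0.32 and 0.81.

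Because kidney B gave both fractions, the fractions can be compared within that letter. The difference of high-B from negative-B was -2.29 for Acta2, -3.38 for Actg2, -3.89 for Myh11, -2.76 for Tagln, -3.58 for Cnn1, -2.42 for Mylk, -2.81 for Myocd, -2.09 for Des, -0.82 for Lmod1 and -2.40 for Cald1. High-A against negative-D gave differences of -3.24 for Acta2, -1.84 for Actg2, -2.22 for Myh11, -2.45 for Tagln, -2.59 for Cnn1, -2.27 for Mylk, -1.49 for Myocd, -2.11 for Des, -0.14 for Lmod1 and -2.57 for Cald1. These are single arrays with no replicate, and since the groups did not overlap the sign could not differ between the comparisons.

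Markers of other cells were set beside these differences between kidneys. The median excess of kidney B was 0.73 among GFP-high and 0.91 among GFP-negative cells for the contractile genes. For interstitial stroma it was 0.12 and -0.17, and for pericytes, mesangial and renin cells 0.14 and -0.17. For endothelium it was -0.06 and -0.31, for nephron progenitors 0.15 and -0.11, and for the contractile partners listed below 0.11 and 0.23. Single partners ranged from -0.19 to 0.99 and from -0.29 to 1.35. Of the partners that fell at least 4-fold, the excess among GFP-negative cells was 1.35 for Pdlim3, 1.07 for Myl9 and 0.85 for Synpo2. For Tpm2, Ppp1r14a and Tgfb1i1 it was 0.785, 0.57 and 0.12. Among GFP-high cells it was 0.99 for Myl9 and between 0.05 and 0.38 for the others of these partners. Single genes of the stromal list ranged from -0.53 to 0.61 and from -0.50 to 0.81. In the pericyte, mesangial and renin list they ranged from -0.25 to 0.89, with Itga8 highest, and from -0.59 to 0.37. Podocyte markers moved with the contractile genes, with medians of 0.84 and 1.14. Podxl, a sialoprotein of the podocyte surface, had 6.08 and 7.65 in GFP-high cells and 10.52 and 9.54 in GFP-negative cells, and Ptpro, a phosphatase of podocytes, 4.06 and 5.12 against 8.59 and 7.26. Over this list, of which 4 of 6 genes were measured, the mean level was 4.55 and 5.47 in GFP-high and 8.04 and 7.05 in GFP-negative cells. Its part in the contractile values was not tested. Of 25 striated muscle markers 4 fell (16%), 2 rose and 19 did not pass, where 11.2% of all genes fell and 8.08% rose. Below the background level on all 4 arrays lay 14 of the 25, among them Myod1, Myog and Myf5. Tnnt2, a troponin of heart muscle, had 5.78 and 5.60 in GFP-high cells and 8.67 and 6.69 in GFP-negative cells (limma adjusted p = 0.0427). Its excess of kidney B was 1.98 among GFP-negative cells, rank 4 of all genes, and -0.18 among GFP-high cells. The other 3 that fell were Tnni1 (difference -1.72), Actn3 (-1.92) and Tnnt3 (-0.72), and those that rose were Tnnc1 (0.85) and Actn2 (0.50). Under the background level lay Actn3 in GFP-high cells (3.97 and 3.94) and Actn2 in GFP-negative cells (3.89 and 3.94). Without either GFP-high array the call was kept by Actn3 alone of these 6, and Tnnt2 did not pass with quantile normalization either (0.0506).

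Of the 65 genes with kidney B higher by at least 0.5 in both fractions, 6 were contractile members and 1, Myl9, a partner. Another 3 were on the podocyte list, of which only 4 genes were measured, and podocyte genes outside that list were not counted. Of the 65 genes, 29 were lower in GFP-high cells, where 11.2% of all genes were. Ranked by the smaller of the differences, Cnn1 and Tagln came first, followed by Ptpro, R3hdml and Myl9. These genes were chosen after their values were seen.

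Partners of the members were followed on a list of 20 genes, of which 19 were measured. Of these 12 fell (63.2%), 1 rose and 6 did not pass, where 11.2% of all genes fell and 8.08% rose. Their median difference was -0.66. The list split by size. Myl9, the regulatory light chain that the kinase phosphorylates, had 7.06 and 8.04 in GFP-high cells and 11.36 and 10.30 in GFP-negative cells, a 9.72-fold fall (limma adjusted p = 0.00125). Tgfb1i1, a focal adhesion protein, fell 9.38-fold (5.40 and 5.48 against 8.73 and 8.61, adjusted p = 1.547e-05), and Pdlim3, a PDZ-LIM protein of the actin cytoskeleton, 8.84-fold (adjusted p = 0.00114). Tpm2, the beta tropomyosin, fell 8.26-fold (adjusted p = 0.000217), and Ppp1r14a, an inhibitor of myosin phosphatase, 4.39-fold. Synpo2 also fell, from 6.99 and 6.14 in GFP-negative cells to 4.10 and 4.21 in GFP-high cells, both under the background level.

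The other partners differed less. Svil, Csrp1, Actn1, Flna, Smtn and Pdlim7 fell between 1.54-fold and 2.06-fold, and each of these 6 lost the call without 2 to 4 of the arrays, at adjusted p from 0.0501 to 0.168. Actn1 also lost it with the mean of its probe sets (0.056). Tpm1 (difference -0.20), the phosphatase subunits Ppp1r12a (-0.46) and Ppp1r12b (-0.28), Myl6 (-0.48), Fhl1 (0.04) and Vcl (0.27), the vinculin gene, did not pass. Myl6 and Ppp1r12a passed with the crossed pairing as a block (adjusted p = 0.028 and 0.0377), quantile normalization (0.0499 and 0.0456), cyclic loess (0.0437 and 0.0352) and a mean-variance trend (0.0194 and 0.0403), each of which made the count 14. Filip1l rose 1.92-fold, from 7.46 and 7.18 in GFP-negative cells to 8.35 and 8.18 in GFP-high cells (limma adjusted p = 0.0038), though not without high-A (0.105), high-B (0.0722) or negative-D (0.0673), nor with the mean of its probe sets (0.0607). The count of 12 dropped to 2 without either GFP-high array, to 7 without negative-B and to 8 without negative-D. Tgfb1i1 passed without each array in turn. Without high-A and high-B adjusted p was 0.0912 and 0.053 for Myl9, 0.11 and 0.0978 for Pdlim3, 0.085 and 0.0733 for Synpo2 and 0.06 and 0.0504 for Ppp1r14a, and it was 0.0553 for Tpm2 without high-A.

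**Figure D3:**
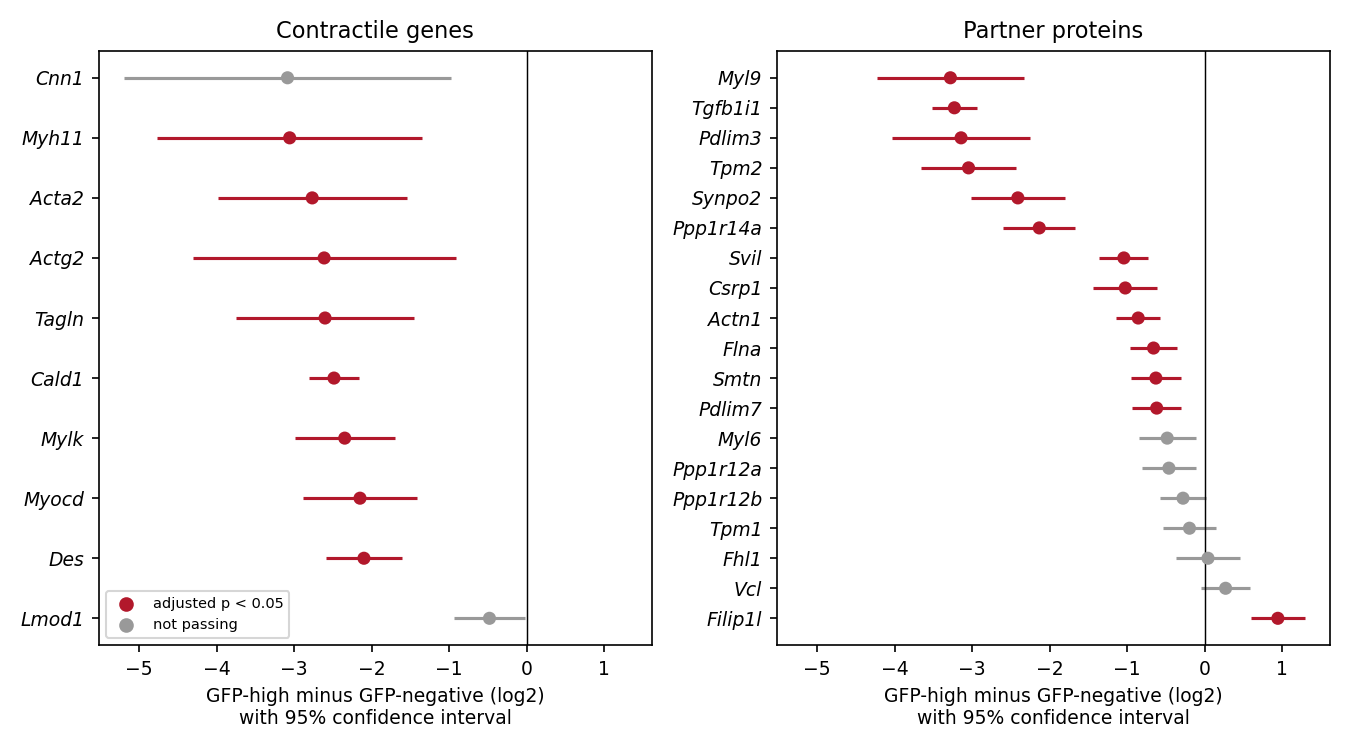
Difference between GFP-high and GFP-negative cells (log2, point) with its 95% confidence interval (line) for the 10 contractile genes and the 19 measured partners, red where the adjusted p was below 0.05 and grey where it was not. Contractile genes other than Lmod1 lie between -3.08 and -2.10, whereas the partners spread from -3.28 for Myl9 to 0.94 for Filip1l.

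Among 14 transcriptional regulators 5 fell (35.7%), 0 rose and 9 did not pass, where 11.2% of all genes fell and 8.08% rose. Their median difference was -0.27. Srf, the serum response factor with which myocardin acts, did not pass, with 9.82 and 9.66 in GFP-high cells and 9.86 and 9.90 in GFP-negative cells (difference -0.14, 95% interval -0.44 to 0.16). Its other coactivators Mrtfa and Mrtfb had differences of 0.21 and 0.18, which did not pass. Tead1 (-0.06) and the repressors Klf4 (-0.04), Elk1 (-0.35) and Foxo4 (0.16) did not pass either. Elk1 did pass with cyclic loess (difference -0.41, limma adjusted p = 0.0476), which made the count 6. Tshz3, a zinc finger factor required for ureteric smooth muscle, stood at 5.51 and 5.45 against 9.01 and 8.65, a 10.2-fold fall (limma adjusted p = 1.877e-05). Gata6 fell 7.67-fold (5.92 and 5.70 against 8.67 and 8.83) and Fhl2, a LIM cofactor, 4.28-fold. Tbx18, a T-box factor of ureteral mesenchyme, stood at 4.11 and 3.84 in GFP-high cells and at 6.96 and 6.13 in GFP-negative cells, and Mef2c at 4.06 and 4.23 against 5.78 and 5.89. For both of these genes the GFP-high values lay under the background level, so no fold is given. Tbx18 did not pass without high-A (0.0662) or high-B (0.0725), and the other 4 passed without each array.

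Relatives of the members that serve other cells gave a reference for the same protein families. Of 18 such genes 4 fell (22.2%), 0 rose and 14 did not pass, where 11.2% of all genes fell and 8.08% rose. Their median difference was -0.16. The cytoplasmic actins Actb and Actg1 had differences of -0.0014 (95% interval -0.28 to 0.28) and -0.04, and the striated actins Acta1 and Actc1 of -0.01 and -0.08, beside -2.77 for Acta2 and -2.61 for Actg2. The non-muscle myosins Myh9 (0.04), Myh10 (-0.17) and Myh14 (0.33) did not pass, beside -3.06 for Myh11. Tagln2 and Tagln3 had -0.34 and -0.27 beside -2.60 for Tagln, while the kinases Mylk2 and Mylk3, of skeletal and heart muscle, lay below the background level on all 4 arrays and give no reference for Mylk.

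Calponins and intermediate filaments departed from this split. Cnn2 stood at 7.80 and 8.02 in GFP-high cells and at 10.23 and 10.14 in GFP-negative cells, a 4.85-fold fall (limma adjusted p = 4.508e-05) with little spread within a fraction, unlike Cnn1. Vim, the vimentin of mesenchymal cells, had 8.80 and 9.56 against 12.07 and 11.89 and fell 6.97-fold (adjusted p = 0.000216). Cnn3 and Tmod3 fell 1.49-fold and 1.64-fold. Cnn3 did not pass whichever array was left out (adjusted p 0.0801 to 0.285), with the mean of its probe sets (0.0649) or with the array number as a block (0.0809), and Tmod3 did not without high-A (0.224), high-B (0.216) or negative-B (0.16). Accordingly the count of 4 dropped to 2 without high-A, high-B or negative-B.

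**Figure D4:**
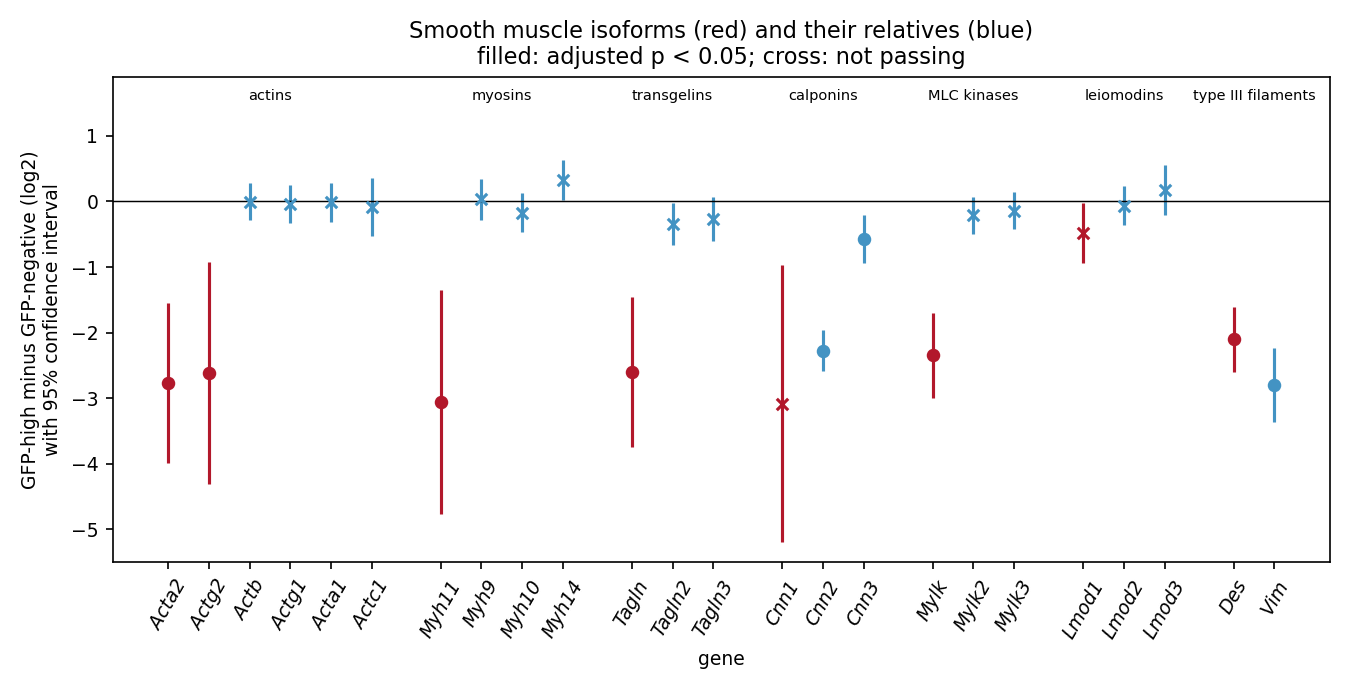
Difference between GFP-high and GFP-negative cells (log2) with its 95% confidence interval for contractile genes (red) and related genes of other cells (blue), by protein family. Points are filled where adjusted p was below 0.05 and crosses where it was not. Cald1, Myocd, Tmod1 and Tmod3 are not drawn. Relatives of the actins, myosins and transgelins lie near 0, those of the light chain kinase are below the background level on all 4 arrays, and Cnn2 and Vim lie at -2.28 and -2.80.

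The genes whose profile was most like that of the members were found by the root mean square distance between 4 centred log2 values and the members' mean profile, over 4 arrays and with no test. The nearest were Rnf150 (distance 0.149), R3hdml (0.162), Daam2 (0.212), Npr3 (0.22) and Stac2 (0.229). Rnf150 had 5.22 and 5.74 in GFP-high cells and 8.20 and 7.20 in GFP-negative cells. Npr3, the clearance receptor of natriuretic peptides, had 5.29 and 5.68 against 8.92 and 7.45. Of the members, Tagln was nearest to the mean profile (0.173) and Lmod1 farthest (1.02).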

How the data were processed

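Total RNA of sorted cells was hybridised to Affymetrix arrays, 2 per fraction. Values are log2 expression levels as deposited by the authors. The sources used here do not give their correction, summary or scaling. The fraction was taken from each description and the kidney letter from each title. Genes were named by the platform annotation: of 35556 probe sets 21218 named 1 gene, 1881 several and 12457 none, and the probe set with the highest mean stood for a gene. The identifiers of all 10 members matched RefSeq.

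Groups were compared by lmFit and eBayes of limma 3.58.1 (R 4.3.3), two-sided, over all 18820 genes, with Benjamini-Hochberg adjustment and a threshold of 0.05. There were 2 residual and 5.11 prior degrees of freedom. The test was also run on simulated arrays, with results not given here. Their noise was independent between genes and arrays, so they do not cover the spread that members shared. SE is the moderated standard error, and intervals are 95%. Members and lists were chosen with earlier results of these data known. One further list is not reported here. All members and list genes could be named, and the 5 genes nearest to the members' mean profile. Other genes were chosen after their values were seen. Arrays have no depth of reads, so that precision rests on their number.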

Additional observations from a re-analysis of the deposited data

How the results depend on the processing

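Under 15 alternatives each member that was in the test kept the sign of its difference. The median difference of the members ranged from -2.93 to -1.83 with 1 array left out and from -2.68 to -2.45 otherwise. With 1 array left out, the count of members lower ranged from 1 to 7, of all genes lower from 729 to 1148 and higher from 387 to 603, of partners lower from 2 to 8 and of relatives lower from 2 to 3. With only genes above the median level tested, 6 of the 6 members that remained in the test were lower, as were 1192 of all genes and 3 regulators. With the array number as a replicate block 7 members were lower, and Actg2 had adjusted p = 0.0607. Deviations of same-numbered arrays from their fraction means were weakly and negatively correlated (r = -0.198 over all genes). With 2 arrays per fraction, the kidney B arrays give the same value with the opposite sign (0.198). With the crossed pairing, B with B and A with D, 9 members and 2339 genes were lower. No label links A with D, and either block leaves a single residual degree of freedom. Median centring gave 1889 lower and 2122 higher genes against 2100 and 1520. Signal near background limits Lmod1, Myocd, Synpo2, Tbx18, Mef2c, Actn3, Daam2, Stac2 and Foxd1 in GFP-high cells and Actn2 in GFP-negative cells. It also limits the GFP-high value of Actg2, Cnn1 and Ptpro in kidney A, and with it their excess of kidney B among GFP-high cells.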
